A study of Mus musculus with 6 samples.

Results

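The genes of endoplasmic reticulum (ER) protein folding, protein entry into the ER and the unfolded protein response were followed in mouse naive CD4+ T cells after rapamycin treatment in vivo. The set holds 38 genes that were chosen by name, out of 55487 genes in the deposited tables: 5 stress sensors and transcription factors, 13 chaperones and folding enzymes, 14 genes of translocation and signal peptide processing, and 6 of ER-associated degradation. The comparison was of poly(A) RNA from 3 libraries of rapamycin-treated mice with 3 libraries of untreated mice, all wild-type C57BL6/J, and all from naive CD4+ T cells of the spleen. Rapamycin inhibits the kinase mTOR, and the study compared the 2 groups under the question of what mTOR inhibition does to these cells. The dose, route and duration of rapamycin, the age of the mice and the sorting gate are not given in the sources used here. Nothing in the labels ties a library to its own mouse or culture, so the p-values below rest on a spread among libraries that may be technical.

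Proteins bound for the cell surface or for secretion enter the ER through the Sec61 channel, guided by the signal recognition particle, and lose their signal peptide to signal peptidase. Inside, they are folded by chaperones and by enzymes that form disulfide bonds, and chains that fail to fold are sent back out for degradation. When unfolded chains build up, the membrane sensors IRE1, PERK and ATF6 start the unfolded protein response, which induces chaperones, slows protein synthesis and raises the capacity for degradation. Plasma cells, which secrete antibody, are the lymphocytes best known for a large ER and strong use of the IRE1 target Xbp1, whereas naive T cells are small and secrete little.

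The libraries held 8757280 to 9315370 expected counts in the rapamycin group and 9712671 to 11393317 in the untreated group. Levels are in CPM, read counts scaled to a common library size with TMM factors. A floor of 3 counts, set against the total counts with no TMM factor, lay between 0.263 and 0.343 CPM, and every member had at least 29 counts in every library. Of 11950 genes tested with edgeR's quasi-likelihood test at a Benjamini-Hochberg adjusted p under 0.05, 24.1% were higher and 23.3% were lower with rapamycin, 47.4% in either direction. Fold changes followed gene length: the median log2 fold change was −0.32 at the short end (the first of 10 groups by length, with a median of 812 bases) and 0.25 at the long end (6162 bases). The median number of bases that RSEM took off gene length for the fragment was also larger with rapamycin, at 251 to 257 bases, against 239 to 240 in untreated libraries. A fit that removes the length trend from each library is therefore given beside the main one, and it called 20.2% of genes higher and 18.2% lower, 38.4% in either direction. What part the length trend has in any one gene was not tested.

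Most of the ER genes that changed with rapamycin were lower, by modest amounts. Of the 38 members, 22 fell, 3 rose (Ern1, Hsp90b1 and Sec63) and 13 did not pass the test, beside the 23.3% lower, 24.1% higher and 47.4% called either way among all genes. The median log2 fold change of the members was −0.18, against −0.01 for all genes tested. With the length correction 20 members fell, 2 rose (Hsp90b1 and Sec63) and the median was −0.16, and 15 members fell in both fits. No member that passed the test changed by 2-fold or more. In CPM all 3 rapamycin libraries lay below all 3 untreated ones for 23 members and above them for 3, where 26.8% of all genes lay below and 26.9% above. On the TPM scale, tested with limma on log2(TPM + 1), 11 members were lower and 3 higher (Hsp90b1, Sec62 and Edem1), where 1158 of all genes were lower, 2713 were higher and their median was 0.09. The other members that fell in CPM did not pass there: Xbp1, Calr, Pdia4, Pdia6, P4hb, Manf, Creld2, Sec61a1, Spcs2, Spcs3 and Derl1, nor did Ern1 and Sec63 among those that rose. In such bulk samples, fewer cells that express a gene and less RNA of it per cell cannot be told apart.

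**Figure D1:**
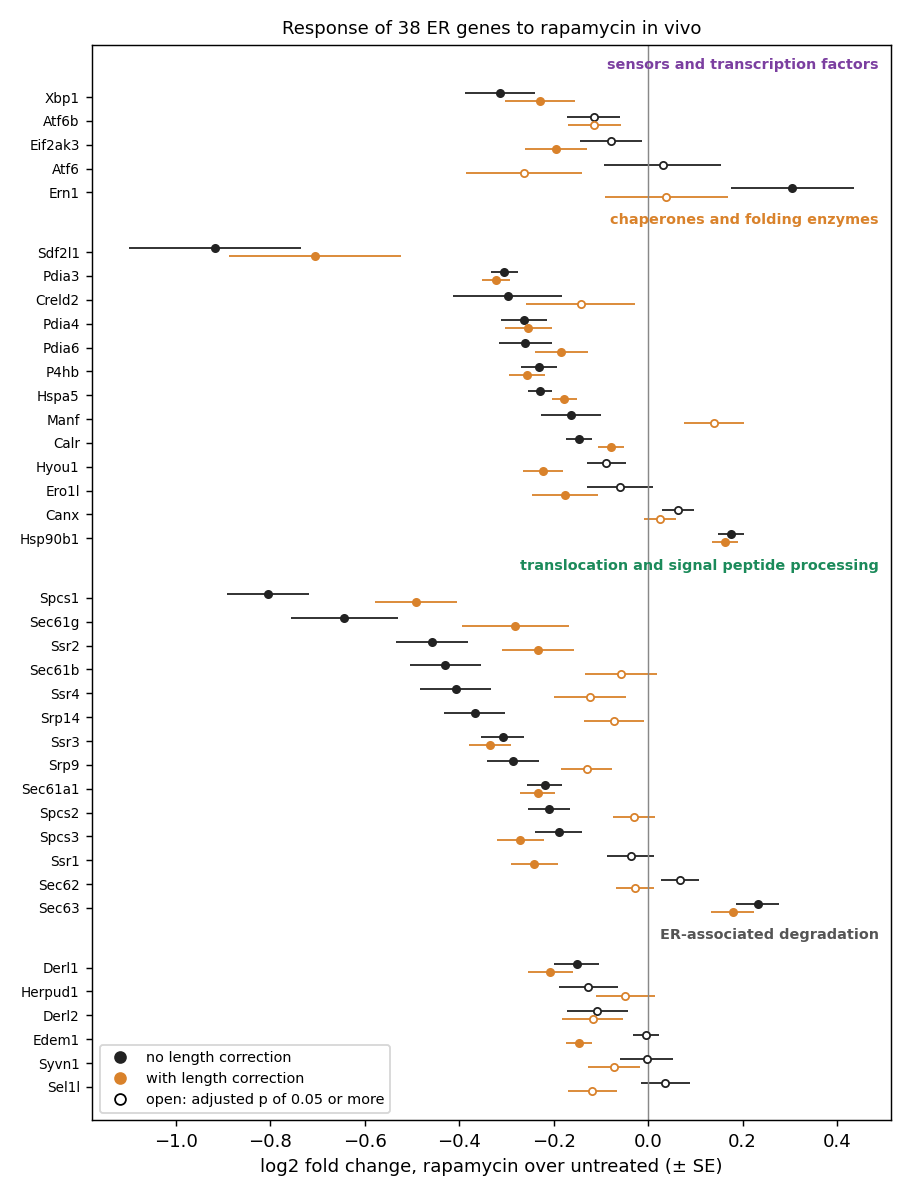
Log2 fold changes of the 38 members, rapamycin over untreated, with SE as horizontal bars, ordered within each role. Black points are without and orange points with the length correction, and open points did not pass the test. The translocation genes reach −0.80 at Spcs1 and the chaperones −0.92 at Sdf2l1, whereas Edem1, Syvn1 and Sel1l of the degradation genes sit near 0 without the correction.

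Per unit of length the most abundant members in both groups were the chaperones Hspa5 and Calr. In TPM, which scales counts for gene length and depth, Hspa5 averaged 296 ± 2.13 in rapamycin libraries and 323 ± 12.1 in untreated ones (SD, n = 3 each). Calr, which encodes calreticulin, a chaperone that binds sugar chains, averaged 304 ± 6.98 TPM with rapamycin and 304 ± 3.33 TPM untreated. The next in rapamycin libraries was Hsp90b1, at 212 ± 9.11 TPM with rapamycin and 171 ± 3.51 TPM untreated. The next in untreated libraries was the channel gene Sec61b, at 147 ± 8.72 TPM with rapamycin and 178 ± 3.56 TPM untreated. The least abundant were the sensors Atf6, at 2.93 ± 0.351 TPM with rapamycin and 2.69 ± 0.201 TPM untreated, and Ern1, at 3.07 ± 0.361 TPM with rapamycin and 2.41 ± 0.09 TPM untreated. The levels of Atf6 and Ern1 did not differ beyond their spread in rapamycin libraries.

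**Figure D2:**
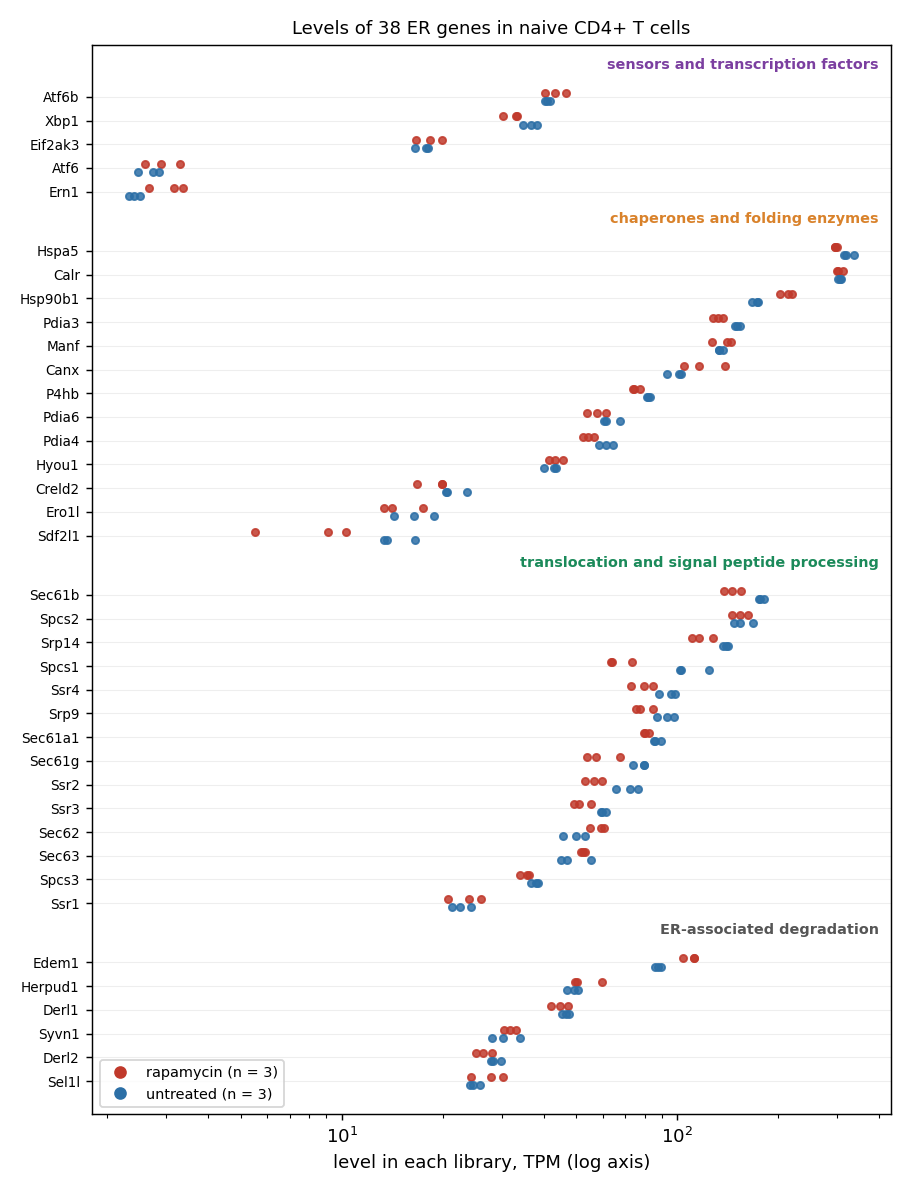
Level of each member in every library, in TPM on a log axis, by role and in order of the untreated mean. Red points are the 3 rapamycin libraries and blue points the 3 untreated ones. Levels run between 2.41 TPM for Ern1 and 323 TPM for Hspa5 as means of untreated libraries.

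Among the sensors and transcription factors, Xbp1 fell with and without the length correction, whereas the sensors themselves gave no call that held in both. Xbp1 (ENSMUSG00000020484, chromosome 11, 5520659 to 5525893, GRCm38) encodes the transcription factor whose mRNA is cut by IRE1 during ER stress. Its level was 35.2, 32.0 and 34.3 CPM with rapamycin, against 42.1, 43.1 and 40.9 CPM untreated. The groups did not overlap, and the log2 fold change was −0.31 ± 0.07 (SE) with an adjusted p of 3.34e-04 by edgeR's quasi-likelihood test. With the length correction it was −0.23 with an adjusted p of 0.0107. On log2(TPM + 1) the Xbp1 log2 fold change was −0.17 with an adjusted p of 0.0991 by limma, which did not pass. The gene-level tables do not separate the cut from the uncut Xbp1 mRNA.

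Ern1 (ENSMUSG00000020715, chromosome 11, 106394650 to 106487852), which encodes IRE1 itself, moved the other way on the uncorrected scale. Its level was 15.2, 14.2 and 12.7 CPM with rapamycin, against 10.2, 12.4 and 11.6 CPM untreated. The groups did not overlap, with the lowest rapamycin library just above the highest untreated one. The log2 fold change was 0.31 ± 0.13 with an adjusted p of 0.0487 by edgeR, and it was 0.04 with an adjusted p of 0.844 after the length correction. The call was lost without rapamycin library 1, rapamycin library 2, untreated library 1 or untreated library 3, with an adjusted p of up to 0.22.

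Eif2ak3, which encodes PERK, the kinase that slows protein synthesis, had 45.1, 46.9 and 48.6 CPM with rapamycin, against 48.3, 49.5 and 50.6 CPM untreated. The ranges overlapped, and the log2 fold change was −0.08 ± 0.07 with an adjusted p of 0.343 by edgeR. After the length correction Eif2ak3 was called lower at −0.19 with an adjusted p of 0.0142. Atf6, whose protein is cut in the Golgi to release a transcription factor, had 14.5, 13.0 and 16.5 CPM with rapamycin, against 13.2, 14.6 and 15.3 CPM untreated. Its groups overlapped fully (log2 fold change 0.03 ± 0.12, adjusted p of 0.861 by edgeR). Its relative Atf6b had 62.1, 71.6 and 67.3 CPM with rapamycin, against 74.0, 71.1 and 72.4 CPM untreated. These ranges overlapped through rapamycin library 2, at −0.12 ± 0.06 with an adjusted p of 0.0854 by edgeR. Without that library Atf6b was called lower, with an adjusted p of 0.0242, so that 2 of the 5 genes of this role fell.

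**Figure D3:**
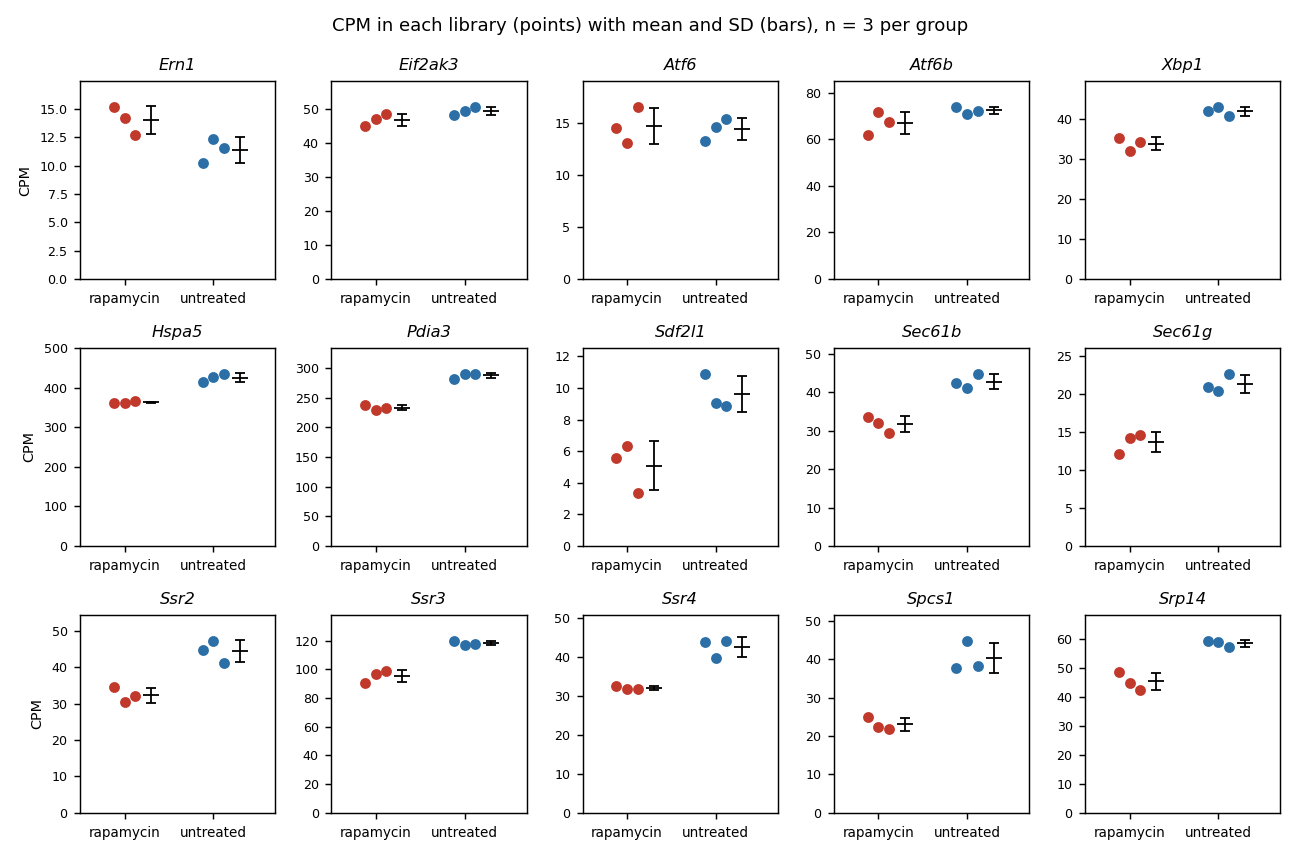
CPM in each library for the sensors, Xbp1, Hspa5 and the members past the test with a log2 fold change of at least 0.3 in either direction. Points are libraries, bars are mean and SD of 3, and rapamycin is on the left of each panel. The groups overlap for Eif2ak3, Atf6 and Atf6b and are apart in the other panels.

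The chaperones and folding enzymes fell as a majority: 9 of 13 were lower, 1 was higher and 3 did not pass, with a median log2 fold change of −0.23. With the length correction the counts were the same, 9 lower and 1 higher, at a median of −0.18, and 7 of the genes were lower in both fits. Of all genes tested, 23.3% were lower and 24.1% higher, and 18.2% and 20.2% with the correction. On the log2(TPM + 1) scale 3 chaperones were lower, beside 1158 of the 11950 genes tested. Hspa5 (ENSMUSG00000026864, chromosome 2, 34771970 to 34777547) encodes BiP, the main Hsp70 chaperone of the ER and the partner that holds the sensors inactive. It had 362, 362 and 365 CPM with rapamycin, against 414, 427 and 435 CPM untreated. The rapamycin libraries were tightly grouped and all lay below the untreated ones. The log2 fold change was −0.23 ± 0.03 with an adjusted p of 2.54e-11 by edgeR, and −0.18 with the length correction (adjusted p of 7.95e-08).

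Hspa5 and several of its fellow chaperones are textbook targets of the unfolded protein response through the ER stress response element, which reads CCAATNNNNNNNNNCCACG. Both strands of RefSeq promoter windows on GRCm38.p6, 250 bases before to 50 after each gene's start, were searched for it. The element was found in 7 of the 31 members with a window (22.6%), against 37 of 27025 genes (0.137%). The 37 genes include the 7 members. Members were chosen by name as genes of this response among others, so these shares are a description and test nothing. The 7 members are Hspa5, Hsp90b1, Calr, Canx, Pdia6, Creld2 and Syvn1. The shorter form ERSE-II, ATTGGNCCACG, was found in Herpud1 (12 genes in all, 0.0444%). The core TGACGTG of the unfolded protein response element was found in Hspa5 (601 genes, 2.22%). Atf6, Hyou1, Manf, Sec61a1, Ssr2, Spcs3 and Derl1 had no window. The stretches below are shown because they are the sequence feature these genes share, on the strand of the gene and with the bases of each element that the motif fixes in capitals. They lie at chr2:34772020-34772048 (Hspa5, plus strand), chr10:86705513-86705676 (Hsp90b1, minus), chr8:84847055-84847113 (Calr, minus), chr11:50325780-50325838 (Canx, minus), chr12:17266471-17266529 (Pdia6, plus), chr15:88819500-88819558 (Creld2, plus), chr19:6046512-6046570 (Syvn1, plus) and chr8:94386357-94386407 (Herpud1, plus). The Hspa5 stretch lies before the RefSeq start but after the gene start that GENCODE annotates, at 34771970. The others lie before the start in both annotations. Hsp90b1 has 2 elements, the second of them on the other strand, as are those of Calr and Creld2.
Hspa5: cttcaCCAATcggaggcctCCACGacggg
Hsp90b1: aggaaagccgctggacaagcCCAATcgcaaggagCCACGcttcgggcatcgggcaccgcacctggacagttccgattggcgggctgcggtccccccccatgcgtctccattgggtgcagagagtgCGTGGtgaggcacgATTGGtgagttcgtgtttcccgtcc
Calr: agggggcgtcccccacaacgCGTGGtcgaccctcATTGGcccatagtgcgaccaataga
Canx: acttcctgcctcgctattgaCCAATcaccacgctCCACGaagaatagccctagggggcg
Pdia6: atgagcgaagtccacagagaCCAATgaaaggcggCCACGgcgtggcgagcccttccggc
Creld2: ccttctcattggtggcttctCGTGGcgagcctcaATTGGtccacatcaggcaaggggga
Syvn1: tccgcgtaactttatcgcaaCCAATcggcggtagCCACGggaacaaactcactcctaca
Herpud1: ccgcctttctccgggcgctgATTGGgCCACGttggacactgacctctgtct

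The genes that share the element did not move as one. Of the 7 with a match, 4 fell (Hspa5, Calr, Pdia6 and Creld2), 1 rose (Hsp90b1) and 2 did not pass (Canx and Syvn1), with a median log2 fold change of −0.15 (−0.08 with the length correction). Of the 24 members with a window and no match, 13 fell, 2 rose and 9 did not pass, with a median of −0.22 (−0.14 with the correction). Among all genes 23.3% fell and 24.1% rose. With the correction Creld2 lost its call among the genes with a match. Among those without a match Sec61b, Ssr4, Spcs2, Srp9, Srp14 and Ern1 lost theirs, and Eif2ak3, Ero1l, Ssr1 and Edem1 were called lower. The difference between these sets was not tested. Hsp90b1 (ENSMUSG00000020048, chromosome 10, 86690209 to 86705509), with its 2 elements, encodes GRP94, the Hsp90 of the ER, which folds integrins and Toll-like receptors. It had 352, 362 and 368 CPM with rapamycin, against 326, 323 and 310 CPM untreated. All rapamycin libraries were higher, at a log2 fold change of 0.18 ± 0.03 (adjusted p of 2.12e-07 by edgeR) and of 0.16 with the length correction (adjusted p of 1.99e-06).

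Calr fell by 0.15 on the log2 scale (adjusted p of 5.52e-06 by edgeR). With the length correction it was at −0.08 (adjusted p of 0.0167), and with effective-length offsets at −0.09 (adjusted p of 0.0517), which did not pass. Its membrane-bound partner Canx, which encodes calnexin, gave 0.06 ± 0.03 with an adjusted p of 0.113. Without rapamycin library 3 Canx was called higher, with an adjusted p of 0.0101. The 4 disulfide isomerases of the set all fell. Pdia3 (chromosome 2, 121413775 to 121438687), which works with calnexin and calreticulin and also serves in the loading of MHC class I, had 237, 229 and 232 CPM with rapamycin, against 282, 290 and 290 CPM untreated. The groups were well apart, at −0.30 ± 0.03 with an adjusted p of 9.92e-14 by edgeR and at −0.32 with the length correction. The isomerases Pdia4, Pdia6 and P4hb gave log2 fold changes of −0.26, −0.26 and −0.23, each past the test in both fits. Ero1l, the oxidase that recharges them, gave −0.06 (adjusted p of 0.515 by edgeR), and −0.18 with an adjusted p of 0.0389 after the length correction.

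The largest fold change of any member belonged to Sdf2l1 (ENSMUSG00000022769, chromosome 16, 17130138 to 17132383), a small ER protein that works beside BiP and its J-domain partners. It had 5.57, 6.32 and 3.36 CPM with rapamycin, against 10.9, 9.04 and 8.85 CPM untreated. The groups did not overlap, and rapamycin library 3 was the lowest. The log2 fold change was −0.92 ± 0.18 with an adjusted p of 2.76e-05 by edgeR, and −0.70 with an adjusted p of 0.00141 after the length correction. Sdf2l1 also had the fewest counts of the set, 444 over all 6 libraries.

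The remaining chaperones gave calls that depended on the fit or on a single library. Manf, an ER protein that binds BiP and can be secreted, had a log2 fold change of −0.16 (adjusted p of 0.029 by edgeR) and of 0.14 (adjusted p of 0.0752) with the length correction. Its call was lost without any 1 of the rapamycin libraries or untreated library 1, with an adjusted p of up to 0.165. Creld2, induced by ER stress, gave −0.30 (adjusted p of 0.0285 by edgeR) and −0.14 (adjusted p of 0.344) with the correction, and lost its call without rapamycin library 3 or untreated library 2. Hyou1, the nucleotide exchange factor of BiP, gave −0.09 (adjusted p of 0.0794 by edgeR). It was called lower at −0.22 with the correction (adjusted p of 1.57e-05), and also without untreated library 1.

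Most genes of translocation and signal peptide processing were lower without the length correction: 11 of 14 fell, Sec63 rose, and Sec62 and Ssr1 did not pass, at a median log2 fold change of −0.30. The median length of these genes is 1305 bases, against 2366 for all genes tested. With the length correction 7 fell and 1 rose at a median of −0.18, and 6 fell in both fits. Among all genes tested 23.3% fell and 24.1% rose, and with the correction 18.2% fell and 20.2% rose. Summed over the role, levels were 1063 ± 15.3 TPM with rapamycin and 1226 ± 18.4 TPM untreated (SD, n = 3 each). The same sums for the chaperones were 1475 ± 30.2 TPM with rapamycin and 1486 ± 11.8 TPM untreated.

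Spcs1 (ENSMUSG00000021917, chromosome 14, 30999826 to 31001672), a small accessory subunit of signal peptidase, had the largest change of the role. It had 25.0, 22.3 and 21.8 CPM with rapamycin, against 37.8, 44.8 and 38.3 CPM untreated. The groups were far apart, and untreated library 2 was the highest. The log2 fold change was −0.80 ± 0.09 with an adjusted p of 5.29e-12 by edgeR, and −0.49 with an adjusted p of 4.34e-06 after the length correction. Of the other subunits, Spcs2 gave −0.21 (adjusted p of 5.59e-05 by edgeR), and did not pass with the correction, at −0.03 (adjusted p of 0.625). Spcs3, whose yeast counterpart is needed for peptidase activity, fell by 0.19 on the log2 scale, and by 0.27 with the correction.

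The channel genes parted by fit. Sec61a1, which forms the pore, fell by 0.22 on the log2 scale (adjusted p of 1.43e-06 by edgeR) and by 0.23 with the length correction. Sec61g, a short single-span subunit, had 12.1, 14.2 and 14.5 CPM with rapamycin, against 20.8, 20.4 and 22.6 CPM untreated. The groups did not overlap, at −0.64 ± 0.11 with an adjusted p of 2.88e-06 by edgeR and at −0.28 (adjusted p of 0.0432) with the correction. Sec61b, the other small subunit, had 33.5, 32.0 and 29.5 CPM with rapamycin, against 42.3, 41.1 and 44.8 CPM untreated. Its groups were also apart, at −0.43 ± 0.08 with an adjusted p of 3.10e-06 by edgeR, but the correction gave −0.06 with an adjusted p of 0.590.

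Sec62 and Sec63 encode the membrane proteins that help chains enter after their synthesis, and Sec63 brings BiP to the channel. Sec63 was the only gene of the role called higher, with 119, 121 and 110 CPM with rapamycin, against 103, 101 and 94.5 CPM untreated. The groups did not overlap, at a log2 fold change of 0.23 (adjusted p of 2.12e-05 by edgeR) and of 0.18 with the length correction (adjusted p of 0.00112). With RSEM's effective lengths as offsets the value was 0.01 with an adjusted p of 0.961. Sec62 gave 0.07 with an adjusted p of 0.160.

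The 4 subunits of the translocon-associated protein complex, which assists the entry of some chains, all had log2 fold changes below 0. Ssr2 had 34.6, 30.5 and 32.0 CPM with rapamycin, against 44.7, 47.3 and 41.2 CPM untreated. Ssr3 had 90.5, 97.1 and 98.8 CPM with rapamycin, against 120, 117 and 118 CPM untreated. Ssr4 had 32.7, 31.9 and 31.7 CPM with rapamycin, against 43.9, 39.7 and 44.2 CPM untreated. In each of these 3 genes the groups did not overlap. Their log2 fold changes were −0.46 ± 0.08 for Ssr2 (adjusted p of 8.24e-07), −0.31 ± 0.04 for Ssr3 (4.25e-08) and −0.41 ± 0.08 for Ssr4 (7.09e-06) by edgeR. With the length correction Ssr3 kept a log2 fold change of −0.33 and Ssr2 of −0.23, both past the test, and Ssr4 gave −0.12 (adjusted p of 0.2). Ssr1, a long gene of the same complex, gave −0.04 (adjusted p of 0.580 by edgeR), and was called lower at −0.24 with the correction (adjusted p of 7.41e-05).

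Srp9 and Srp14 encode the pair of proteins at the end of the signal recognition particle that pauses translation. Srp14 had 48.6, 44.9 and 42.5 CPM with rapamycin, against 59.4, 59.0 and 57.2 CPM untreated. The groups were apart, at −0.37 ± 0.06 with an adjusted p of 2.44e-06 by edgeR, and the correction gave −0.07 (adjusted p of 0.400). Srp9 gave −0.29 (adjusted p of 1.16e-05 by edgeR) and −0.13 with the correction (adjusted p of 0.0517).

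Of the 6 genes of ER-associated degradation, 1 fell, beside 23.3% of all genes, 0 rose and 5 did not pass, with a median log2 fold change of −0.06, and 2 fell with the length correction at a median of −0.12. Differences between the roles were not tested. Derl1, a membrane protein of the exit channel, had 98.5, 88.1 and 93.5 CPM with rapamycin, against 106, 101 and 104 CPM untreated. The groups did not overlap, at a log2 fold change of −0.15 with an adjusted p of 0.00628 by edgeR, and of −0.21 with the length correction. The call was lost without rapamycin library 2, at an adjusted p of 0.0785, and with effective-length offsets, at 0.0959. Its relative Derl2 gave −0.11 (adjusted p of 0.177 by edgeR). The ubiquitin ligase Syvn1 gave −0.00 and its adaptor Sel1l 0.04. Herpud1, which is induced by ER stress and joins that ligase, gave −0.13 (adjusted p of 0.0874 by edgeR). Without rapamycin library 2 Herpud1 was called lower, with an adjusted p of 0.0354.

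Edem1, a lectin that marks misfolded glycoproteins for degradation, depended most on how length was treated. It had 290, 289 and 282 CPM with rapamycin, against 289, 286 and 287 CPM untreated. The ranges overlapped, at a log2 fold change of −0.00 (adjusted p of 0.917 by edgeR). In TPM it had 104, 112 and 112 with rapamycin, against 87.5, 89.3 and 85.8 untreated, with no overlap. The effective length that RSEM gave the gene was 3521 to 3905 bases in rapamycin libraries and 4227 to 4399 bases in untreated ones. With effective lengths as offsets Edem1 was called higher, at 0.23 (adjusted p of 0.00145 by edgeR), and with the length correction it was called lower, at −0.15 (adjusted p of 2.00e-05). The summed level of the role, 292.7 ± 2.99 TPM with rapamycin and 267.3 ± 3.88 TPM untreated (SD, n = 3 each), includes this gene.

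Across the 38 members the log2 fold change followed gene length, with a Spearman's rho of 0.79 and a Pearson's r of 0.75 with log2 length, and over the 9979 genes whose log2 CPM averaged 2 or more the rho was 0.51. The members share the same 6 libraries, and genes are not independent replicates. After the correction, which is built to remove the length trend, the rho over the members was −0.01. The roles differ in length, with medians of 3904 bases for the sensors, 2393 for the chaperones, 1305 for translocation and 3249 for degradation.

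**Figure D4:**
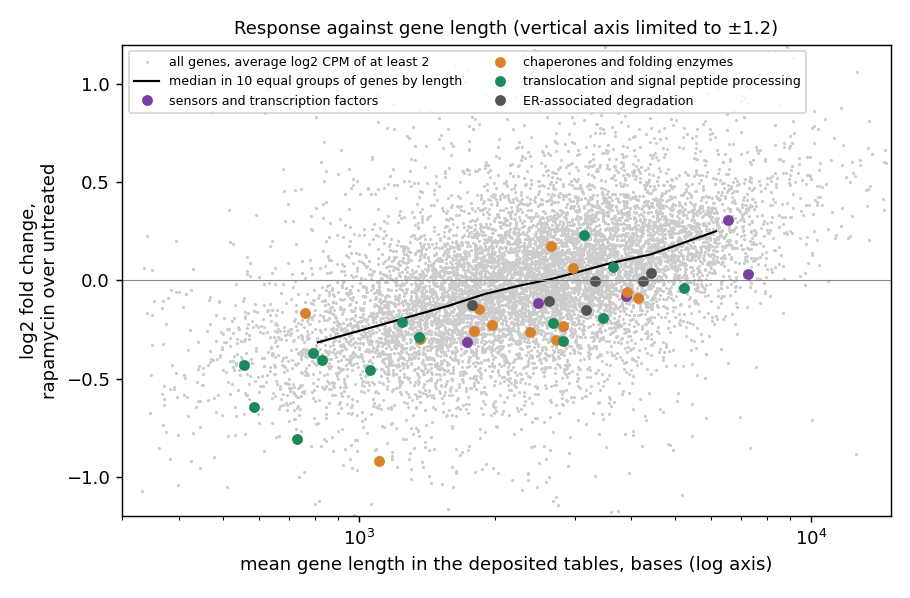
Log2 fold change, rapamycin over untreated, against mean gene length in bases on a log axis. Grey points are all genes whose log2 CPM averaged 2 or more, the line is their median in 10 groups by length, and coloured points are the members by role. The median of all genes runs between −0.32 in the shortest group and 0.25 in the longest, and the short translocation genes lie at the low end.

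Genes outside the set that serve the same steps were counted in the same way. Of 107 other ER genes tested, 44 fell and 15 rose, at a median log2 fold change of −0.10, and with the length correction 28 fell and 12 rose. Of all genes 23.3% fell and 24.1% rose, and 18.2% and 20.2% with the correction. In targeting, translocation and N-glycosylation 19 of 37 fell and 1 rose, and 13 fell and 2 rose with the correction. Emc10, of the membrane insertion complex, was at −0.48 (adjusted p of 1.92e-12 by edgeR) and at −0.36 with the correction. Dad1, a subunit of the oligosaccharyltransferase, was at −0.45 (adjusted p of 1.43e-10 by edgeR) and at −0.21 with the correction. Stt3b, a catalytic subunit of that enzyme, fell by 0.24 on the log2 scale and by 0.38 with the correction, and Srp54a, whose reads can be shared with near-identical copies, fell by 0.32 and by 0.30. In folding 13 of 28 fell and 2 rose, and 6 fell and 0 rose with the correction. Tapbp, tapasin of the MHC class I loading complex, was at −0.28 (adjusted p of 4.47e-14 by edgeR) and at −0.26 with the correction. The disulfide reductase Dnajc10 was at −0.38 (adjusted p of 3.37e-07 by edgeR) and at −0.47 with the correction. Ppib, a prolyl isomerase, gave −0.28, and −0.03 with the correction (adjusted p of 0.529 by edgeR). Cnpy2 gave −0.54, and −0.27 with the correction (adjusted p of 0.0527 by edgeR).

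In stress signalling 6 of 18 fell and 5 rose, beside 23.3% lower and 24.1% higher among all genes. With the correction 6 fell and 4 rose, beside 18.2% lower and 20.2% higher among all genes. Mbtps1, the Golgi protease that cuts ATF6, rose by 0.38 on the log2 scale (adjusted p of 1.35e-15 by edgeR) and by 0.27 with the length correction. Atf4, the transcription factor translated when PERK is active, fell by 0.18 (adjusted p of 7.29e-07 by edgeR) and by 0.11 with the correction. Bak1, of the apoptosis machinery, fell by 0.40 and by 0.37. Ppp1r15a, which reverses the PERK signal, rose by 0.16 (adjusted p of 2.27e-06 by edgeR) and by 0.19. In degradation 6 of 24 fell and 7 rose, and 3 fell and 6 rose with the correction, where the shares that fell and rose without it are near those of all genes. The membrane ubiquitin ligase March6 was at 0.38 (adjusted p of 1.05e-11 by edgeR) and at 0.14 with the correction. Without it the deglycosylating enzyme Ngly1 was at 0.31, Herpud2 at 0.35 and the extraction ATPase Vcp at −0.16, and with it they were at 0.31, 0.32 and −0.22, each past the test in both fits.

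The libraries carried RNA of naive CD4+ T cells, with Cd4 at 362 to 393 TPM with rapamycin and 374 to 397 TPM untreated, and marker RNA of other cells moved with treatment beside the ER genes. Summed plasma cell markers were 52.7 to 63.0 TPM with rapamycin and 102 to 104 TPM untreated. Of these 14 genes 9 were tested, 5 fell and 2 rose, beside 23.3% lower and 24.1% higher among all genes. Tnfrsf17 was listed at 0 in all libraries. Jchain, the joining chain of antibody, had 1.07, 0.55 and 0.92 TPM with rapamycin, against 15.6, 12.8 and 11.2 TPM untreated. Ighg2b had 0.18 to 1.13 TPM with rapamycin and 23.5 to 28.4 TPM untreated. Igha had 0 to 0.56 TPM with rapamycin and 7.61 to 8.64 TPM untreated. The largest of the 14 in every library was Tnfrsf13b, at 27 to 30 TPM with rapamycin and 28 to 32 TPM untreated. The 2 that rose were Prdm1 and Ighg3. Prdm1 had 5.6, 5.94 and 7.25 TPM with rapamycin, against 2.45, 2.31 and 3.11 TPM untreated. Ighg3 had 2.65, 2.74 and 4.67 TPM with rapamycin, against 1.76, 0.92 and 1.27 TPM untreated. Summed activated or memory T cell markers were 54.2 to 68.5 TPM with rapamycin and 88.5 to 101 TPM untreated, with 5 of the 6 tested genes lower. Summed myeloid markers were 175 to 183 TPM with rapamycin and 260 to 279 TPM untreated, with 8 of the 10 tested genes lower. Most of that sum was Ctss, at 151 to 159 TPM with rapamycin and 173 to 194 TPM untreated. CD8 markers were 76.6 to 80.1 TPM with rapamycin and 17.6 to 19.2 TPM untreated. Dendritic cell markers were 111 to 137 TPM with rapamycin and 144 to 151 TPM untreated, with 3 of 8 genes tested and 2 lower. Most of that sum was Bst2, at 52 to 64 TPM with rapamycin and 78 to 79 TPM untreated, and Cst3. Cst3 had 59 to 69 TPM with rapamycin and 64 to 70 TPM untreated, and did not pass (adjusted p of 0.116 by edgeR). Erythroid markers were 12.3 to 14.9 TPM with rapamycin and 26.7 to 37.5 TPM untreated. The naive CD4 T cell markers themselves summed to 5090 to 5140 TPM with rapamycin and 4780 to 4930 TPM untreated. B cell markers overlapped, at 487 to 517 TPM with rapamycin and 474 to 529 TPM untreated. An exact two-sided permutation test over 3 against 3 libraries cannot go below 0.1, the value that all of these sums gave other than that of B cells. Regulatory T and NK cell sums overlapped too, though single genes were called in both directions. Of 5 tested regulatory T cell genes 2 rose and 1 fell. Of 6 tested NK cell genes 1 rose and 2 fell, beside 24.1% of all genes higher and 23.3% lower. The part of these cells in the fall of Xbp1, Hspa5 and the other members was not tested.

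Some members carry limits of counting. Eif2ak3, Hsp90b1, Sec61a1, Sec61g, Sec62, Spcs1, Srp9 and Derl2 had counts that were not whole, so that reads shared with other genes were divided among them. The exons of 14 members overlap a gene on the opposite strand, and that gene had more than 10% of the member's own count for Manf, Spcs1, Derl2 and Syvn1. The library kit keeps the strand, but whether counting used it is not given in the sources used here.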

How the data were processed

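Poly(A) RNA of 6 libraries was analysed. STAR and RSEM were run on mm10, per the submitters' processing notes. Per the file headers, the deposited tables give expected counts, TPM, FPKM and lengths per gene. The authors' expected counts divide shared reads, and genes whose count was not whole within 0.005 held 25.9% to 29.7% of a library. The deposited TPM values take account of effective length and of depth, and the authors' FPKM values were not used. GENCODE vM21 (GRCm38) matched 55227 of 55487 gene identifiers.

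Expected counts were rounded, filtered with filterByExpr and scaled with TMM. Rapamycin was set against untreated by edgeR's quasi-likelihood test (robust, group as the only term), with Benjamini-Hochberg adjustment over 11950 genes and a threshold of 0.05. The SE is the log2 fold change over the square root of F. The length correction is a spline on log2 length (5 degrees of freedom) of each library's deviations, fitted to genes whose log2 CPM averaged 2 or more and entered as offsets. The alternatives were other scalings and filters, DESeq2, limma-voom, limma on TPM, effective-length offsets, a replicate block and leaving out each library. The procedure was tested on simulated data.

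All members were named. Those past the threshold with a log2 fold change of at least 0.3 in size, the sensors, Xbp1 and Hspa5 were given by library, as were Hsp90b1, Sec63, Derl1 and Edem1, chosen after their values were seen. Of each other ER list, up to 4 genes past the threshold by smallest adjusted p were named. The members, lists and length correction were chosen with earlier results of these data known, so counts over them are descriptions. Promoter sequences are RefSeq's on GRCm38.p6, with 31 members matched, Ero1l through its newer symbol. The floors cover counting error only, whereas the SE and SD also hold the spread among libraries. Software was Python 3.11.15 with pandas 2.3.3 and matplotlib 3.10.9, and R 4.3.3 with DESeq2 1.42.0, limma 3.58.1 and edgeR 4.0.16.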

Additional observations from a re-analysis of the deposited data

How the results depend on the processing

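Over 19 alternatives, 629 of the 722 values of single members kept their side of the threshold, 63 lost and 23 gained a call, and 7 changed sign with a call in one of the fits. Of the 629, 30 changed sign with no call in either fit. The 7 were the Manf log2 fold change, at 0.0304 on log2(TPM + 1), 0.0306 on log2(TPM + 0.1) and 0.14 with the length correction, with or without the replicate block, and that of Edem1, at 0.31 on log2(TPM + 1), 0.32 on log2(TPM + 0.1) and 0.23 with effective-length offsets. On both TPM scales 11 members, 3 chaperones, 0 sensors, 0 degradation genes and 10 other ER genes were lower, 0 sensors and 1 degradation gene were higher, the members' median was −0.10, and 1158 and 1144 of all genes were lower. The all-gene median moved to 0.09 and 0.10 on these scales. With effective-length offsets 1607 genes, 24 other ER genes and 0 degradation genes were lower, 1 degradation gene, 7 other ER genes, 0 sensors and 0 translocation genes were higher, and the median was −0.19. With the length correction 2 sensors, 7 translocation genes, 2 degradation genes and 28 other ER genes were lower (29 with the block added), 0 sensors were higher, and the median was −0.16 either way. With upper-quartile or no composition factors 2 sensors and 2 degradation genes were lower, 0 sensors and 8 other ER genes were higher, and the median was −0.22. Upper-quartile factors called 2459 of all genes higher and 3330 lower, and no factors 2470 and 3298. Without a filter 9 other ER genes and 0 sensors were higher, at a median of −0.20. DESeq2 called 0 sensors higher. Leaving out each library gave 0 to 1 sensors higher, 1 to 2 sensors lower, 1 to 2 chaperones higher and medians of −0.19 to −0.17. Deviations of same-numbered libraries correlated at −0.11, 0.05 and −0.09, and not every library correlated best with its own number. These values show no pairing by replicate number, but with 3 libraries per group, whose deviations sum to 0, they cannot exclude it. With the replicate block 22 members were lower, 2 higher and 0 sensors higher, because Ern1 lost its call. Except where stated, the cause of each change was not tested. Depth limits Sdf2l1 most, at 29 counts in its shallowest library.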
